A study of Homo sapiens with 6 samples.

Results

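The AcNEIL1 peaks that lie within 5 Mb of a chromosome end are described here. Chromatin immunoprecipitation and sequencing (ChIP-seq) of acetylated NEIL1 (AcNEIL1) was done in exponentially growing HCT116 cells, an established line from a human colorectal adenocarcinoma, with no treatment. The labels describe 6 libraries, namely 3 AcNEIL1 ChIP libraries (replicates 1, 2 and 3) and 3 libraries of input chromatin, all from untreated cells. All cells came from the same line, and the AcNEIL1 antibody was custom-made in rabbit. Peak lists of the 3 ChIP libraries were used, which the authors had called with the equally numbered input as control. The labels do not say whether replicates were separate cultures, so their spread may be technical. Peak lists hold no expression or marker values, so the identity of the cell line was taken from the labels.

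Members were chosen by position alone, on chromosomes 1, 2, 3, 5, 6, 7, 9, 11, 12, 14, 15, 20 and 21. A peak was taken if its end lay within 5 Mb of the long-arm end of hg38, or if it started in the first 5 Mb of the short arm, except on the acrocentric chromosomes 14, 15 and 21. The windows thus cover 23 chromosome ends, 10 on short arms and 13 on long arms. They held 5382, 8481 and 6733 peaks in replicates 1, 2 and 3, of 39898, 60233 and 49731 peaks listed in all. The remainder of the same chromosomes held 18390, 28187 and 23036 peaks. ChIP libraries held 28814429 to 35222701 tags after the caller's duplicate filter, and replicate 2 was the shallowest ChIP library with the longest list and the deepest input, at 37772127 tags.

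NEIL1 is a DNA glycosylase that starts base excision repair by cutting an oxidised base from DNA, and acetylation is a modification of the protein. Human chromosomes end in tandem telomere repeats, followed by a patchwork of duplicated segments shared between ends, such as the WASH, DDX11L and FAM138 families. Further inwards lies single-copy DNA that on many arms is rich in genes, GC-rich and recombines often. Other ends, such as those of 3p and 9p, carry few and often long genes.

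Promoters show where a peak and a gene start coincide, so a few are printed first. RefSeq promoters (GRCh38.p14, the hg38 sequence) run from 250 bases before to 50 bases after the start. Shown are the promoters of the 4 highest ranked subtelomeric genes with a promoter peak in all 3 replicates, and that of TERT, the catalytic subunit of telomerase, which had no peak over it in any. Those of PERM1 and TTLL10 belong to starts inside the gene. Each is given 5′ to 3′ on the strand of the gene, with every CG dinucleotide in capitals.
PDCD1, chr2:241858845-241859144, the minus strand: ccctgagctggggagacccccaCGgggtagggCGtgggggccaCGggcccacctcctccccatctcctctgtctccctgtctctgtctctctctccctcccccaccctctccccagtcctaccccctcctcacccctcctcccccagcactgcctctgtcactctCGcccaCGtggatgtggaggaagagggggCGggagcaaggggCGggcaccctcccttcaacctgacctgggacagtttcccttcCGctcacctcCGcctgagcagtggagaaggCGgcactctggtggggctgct
LCNL1, chr9:136982743-136983042, the plus strand: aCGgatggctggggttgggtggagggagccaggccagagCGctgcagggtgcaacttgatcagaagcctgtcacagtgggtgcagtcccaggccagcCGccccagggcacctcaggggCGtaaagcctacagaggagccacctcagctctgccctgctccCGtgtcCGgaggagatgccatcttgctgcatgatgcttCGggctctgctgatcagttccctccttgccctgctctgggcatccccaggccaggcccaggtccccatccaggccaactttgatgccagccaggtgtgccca
PERM1, chr1:981124-981423, the minus strand: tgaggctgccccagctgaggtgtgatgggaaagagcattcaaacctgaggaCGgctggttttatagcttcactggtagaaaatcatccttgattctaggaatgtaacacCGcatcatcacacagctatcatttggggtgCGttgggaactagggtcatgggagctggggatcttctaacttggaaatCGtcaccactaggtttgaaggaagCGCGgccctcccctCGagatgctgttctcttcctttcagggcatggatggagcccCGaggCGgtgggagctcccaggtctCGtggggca
TTLL10, chr1:1179431-1179730, the plus strand: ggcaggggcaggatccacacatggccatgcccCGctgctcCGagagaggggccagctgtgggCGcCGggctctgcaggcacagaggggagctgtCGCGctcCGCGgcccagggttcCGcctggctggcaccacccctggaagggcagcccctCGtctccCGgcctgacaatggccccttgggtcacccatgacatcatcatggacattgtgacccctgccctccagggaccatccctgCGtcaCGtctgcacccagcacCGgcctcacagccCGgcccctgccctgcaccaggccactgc
TERT, chr5:1295019-1295318, the minus strand: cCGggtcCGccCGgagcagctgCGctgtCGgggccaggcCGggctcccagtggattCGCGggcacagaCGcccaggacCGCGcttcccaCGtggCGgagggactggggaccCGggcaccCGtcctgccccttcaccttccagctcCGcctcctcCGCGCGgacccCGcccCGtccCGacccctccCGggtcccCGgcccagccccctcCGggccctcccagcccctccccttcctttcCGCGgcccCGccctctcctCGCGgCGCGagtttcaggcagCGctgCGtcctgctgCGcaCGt

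The 4 overlapped promoters held few CG dinucleotides: 10 in PDCD1, 7 in LCNL1, 10 in PERM1 and 15 in TTLL10. The TERT promoter held 36. GC content was 68.3%, 64.7%, 54.0% and 70.3% in the first 4 and 77.3% in TERT. None of the 5 held the telomere repeat unit TTAGGG on either strand. Over all subtelomeric promoters the same contrast was measured, and it is given with the promoter values further on.

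Chromosome ends were dense in AcNEIL1 peaks. The windows made up 6.24% of the sequence analysed on these chromosomes (114.956 Mb) and held 22.6%, 23.1% and 22.6% of its peaks. Density was 46.8, 73.8 and 58.6 peaks per Mb in the windows of replicates 1, 2 and 3, against 10.6, 16.3 and 13.3 in the remainder. The ranges did not overlap, and the lowest terminal density was above the highest interior one. The ratio was 4.4, 4.52 and 4.39, a mean of 4.44 ± 0.0730 (SD, n = 3), and it lay above 1 in 3 of 3 replicates. An exact two-sided sign-flip permutation test over the replicates gave p = 0.25, which is the smallest that 3 replicates allow, and 0.312 after Benjamini-Hochberg adjustment over 5 such tests. No p-value could therefore pass 0.05 here, and each difference is read against the spread between replicates.

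Density did not climb steadily up to the end. In the outermost 0.1 Mb it was 11.7 ± 5.10 peaks per Mb, from 0.1 to 0.5 Mb 56.0 ± 13.8, and from 0.5 to 1 Mb 69.2 ± 16.3 (SD, n = 3 for each). Length counted every base of a bin, any assembly gap inside it included, and the part of such gaps in the outermost value was not tested. The highest value came between 1 and 2 Mb from the end, with 75.2, 104.0 and 89.1 peaks per Mb in replicates 1, 2 and 3. From there it fell in each replicate, to 68.8 ± 15.8 between 2 and 3 Mb, 51.2 ± 16.3 between 3 and 4 Mb and 30.9 ± 7.09 between 4 and 5 Mb (SD, n = 3). The decline went on beyond the window, with 25.2 ± 6.0 between 5 and 10 Mb, 17.7 ± 3.69 between 10 and 20 Mb, 13.8 ± 3.02 between 20 and 40 Mb and 10.8 ± 2.16 further in (SD, n = 3). Just inside the 5 Mb border, from 4.5 to 5 Mb, density was 29 ± 8.04, and just outside it, from 5 to 5.5 Mb, it was 18.4 ± 6.47 (SD, n = 3).

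**Figure D1:**
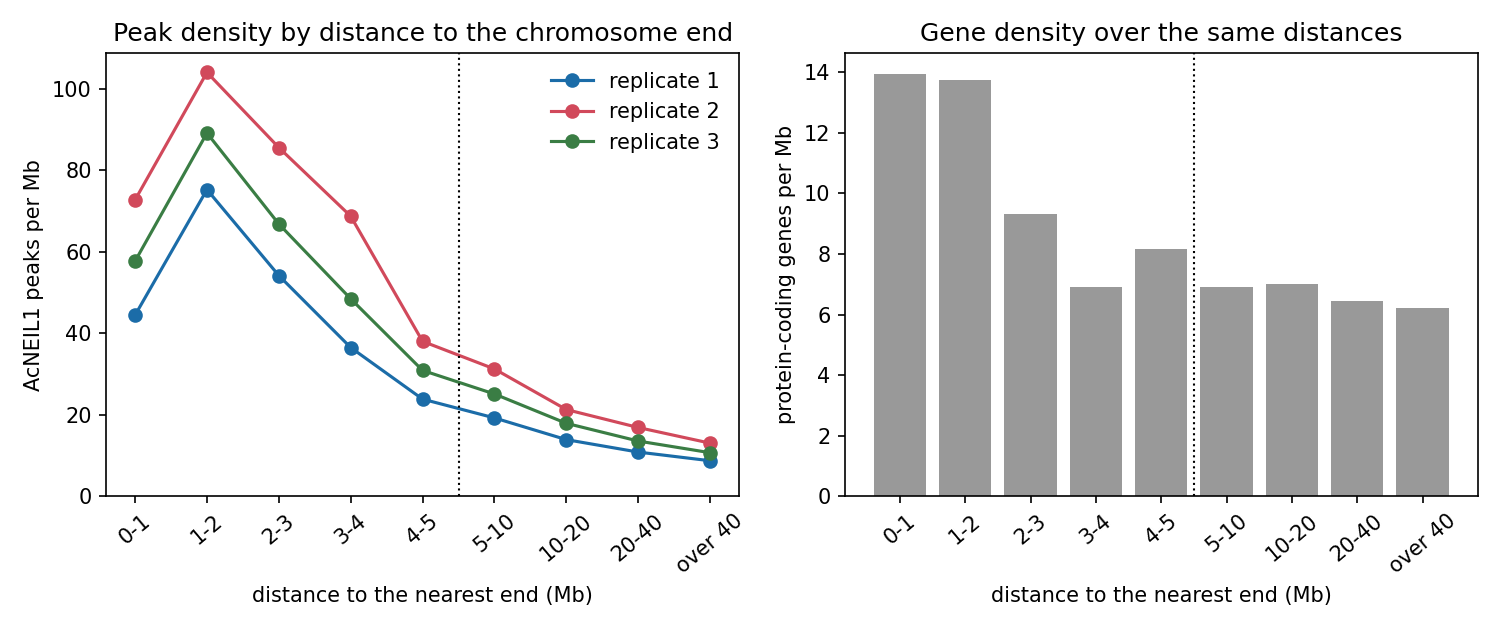
Left, AcNEIL1 peaks per Mb against the distance to the nearest chromosome end in Mb, 1 line per replicate; right, protein-coding genes per Mb over the same distances; the dotted line marks 5 Mb. All 3 replicates peak between 1 and 2 Mb, at 75.2 to 104.0 peaks per Mb, whereas gene density lies between 6.23 and 8.17 genes per Mb beyond 3 Mb.

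Gene density moved with peak density, but not in step. The windows held 10.4 protein-coding genes per Mb and the remainder 6.44, a ratio of 1.62. Per protein-coding gene there were 5.74 ± 1.30 peaks in the windows and 2.09 ± 0.441 elsewhere (SD, n = 3). Between 3 and 4 Mb from the end, gene density (6.91 per Mb) was close to that between 10 and 20 Mb (7.01), yet the former had 7.41 ± 2.36 peaks per gene and the latter 2.52 ± 0.527 (SD, n = 3).

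The comparison was therefore repeated at equal gene number. Each 1 Mb bin was classed by its protein-coding genes, and interior bins were weighted to the classes of the windows. Interior density then became 17.5, 26.8 and 22.2 peaks per Mb, and the ratio 2.67, 2.75 and 2.64, a mean of 2.69 ± 0.0575 (SD, n = 3, exact sign-flip permutation p = 0.25, the smallest possible). At 11 to 20 genes per Mb, windows had 107.2 ± 21.8 peaks per Mb and interior bins 34.6 ± 7.67, and at 1 to 5 genes they had 14.7 ± 6.40 and 4.72 ± 0.800 (SD, n = 3). In the most gene-rich bins, over 20 genes per Mb, the values were 108.4 ± 15.7 and 57.3 ± 10.7, the smallest ratio of the 5 classes at 1.90 ± 0.0838 (SD, n = 3). The class without genes covers 3.28 Mb of the windows only. GC content and copy number were not analysed here, so their part in the density was not tested.

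**Figure D2:**
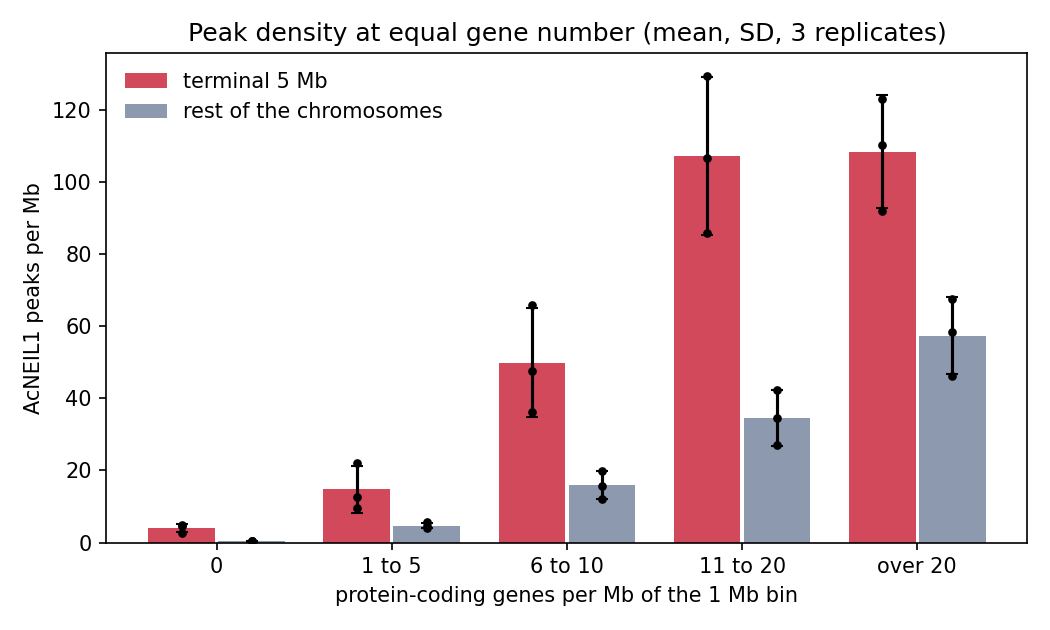
AcNEIL1 peaks per Mb (bars, mean; error bars, SD; points, 3 replicates) in 1 Mb bins classed by protein-coding genes per Mb, for the terminal 5 Mb and the remainder of the chromosomes. The terminal bar is the higher in each class, for example 107.2 against 34.6 at 11 to 20 genes per Mb.

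The 23 ends differed widely among themselves and did so alike in the 3 libraries. At 18 ends density was above that of the chromosome interior in all 3 replicates, at 5 it was below in all 3, and at none did the replicates disagree. Across the 23 ends, which are not replicates, Pearson's r of the log2 ratio to the interior was 0.983, 0.989 and 0.987 for the replicate pairs 1 and 2, 1 and 3, and 2 and 3. Density and the number of protein-coding genes of an end had a Spearman's rho of 0.752 (n = 23, description only).

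The end of 9q was the densest, with 697, 1019 and 879 peaks, or 173.0 ± 32.3 per Mb against 15.1 ± 3.23 in the interior of chromosome 9 (SD, n = 3). It was followed by 1p with 500, 755 and 613 peaks and 11p with 526, 679 and 622. The largest ratio to the interior was that of 21q, with 458, 727 and 544 peaks and a density 16.3 ± 0.387 times that of the remaining chromosome 21 (SD, n = 3). Next came 9q at 11.5 ± 0.339, 5q at 10.1 ± 1.34 and 5p at 9.52 ± 0.283 (SD, n = 3). Chromosome 7 was dense at both ends, with ratios of 8.68 ± 0.952 on 7p and 5.55 ± 1.12 on 7q (SD, n = 3).

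The 5 sparse ends were 9p, 3p, 1q, 11q and 2p. The end of 9p had 4, 13 and 13 peaks and that of 3p 9, 12 and 10, densities 0.127 ± 0.0540 and 0.205 ± 0.0132 times the interior (SD, n = 3). The end of 1q had 23, 49 and 43 peaks although it holds 73 protein-coding genes, 43 of which are olfactory receptor genes. On 11q there were 20, 72 and 33 peaks and on 2p 36, 58 and 32, and 2p was the nearest to its interior at 0.736 ± 0.136 (SD, n = 3). Among the 10 chromosomes with both ends in the set, the long-arm end was the denser in all 3 replicates on 5 (2, 3, 6, 9 and 20) and the short-arm end on 3 (1, 7 and 11).

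**Figure D3:**
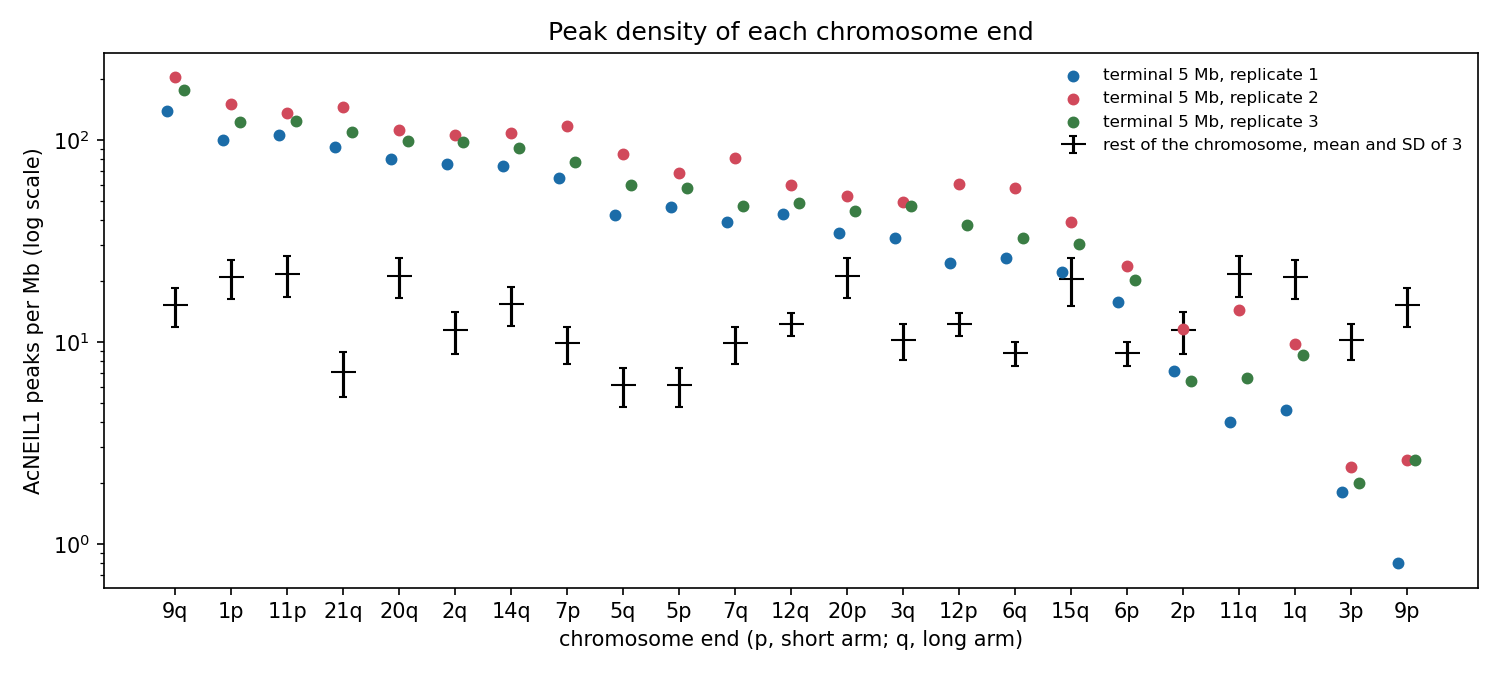
AcNEIL1 peaks per Mb (log scale) at each of the 23 chromosome ends, ordered by mean density, with 1 point per replicate for the terminal 5 Mb and a bar with SD for the interior of the same chromosome. The points run from 9q, at 139.4 to 203.8, down to 9p, at 0.8 to 2.6, and lie under the interior of the same replicate at the 5 ends on the right; at 2p the replicate 2 point is close to the mean bar.

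Within an end, peaks were unevenly spread. Of 102 whole 1 Mb bins in the windows, the median had 33 peaks (mean over replicates), the fullest 251.7, and 13 had none in any replicate. The bins singled out here were chosen after their values were seen. The fullest, on chromosome 11 from 2 to 3 Mb, had 222, 270 and 263 peaks and holds INS, IGF2, TH, KCNQ1 and CDKN1C. The next, on chromosome 1 from 3 to 4 Mb, had 176, 333 and 216 and holds PRDM16, MEGF6 and TP73. Chromosome 11 from 1 to 2 Mb, with the secreted mucin genes, had 211, 235 and 222, and chromosome 9 from 134 to 135 Mb, with RXRA and COL5A1, had 171, 276 and 213.

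Of the 13 empty bins, 3 made up the outermost 3 Mb of 3p, where CHL1, CNTN6 and CNTN4 encode neural cell adhesion proteins of the immunoglobulin superfamily. The 2 empty bins of 11q hold NTM and OPCML, which belong to another family of such neural adhesion genes. Others held the homeobox gene IRX1 on 5p, TMEM132D on 12q, ARRDC4 on 15q and DMRT2, a gene of the sex-determination DMRT family, on 9p. In an empty bin nothing was called at this depth, which does not show that AcNEIL1 was absent.

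Single peaks at chromosome ends were a little wider than elsewhere and stood on a higher local background, with a slightly lower median fold. Median width was 429, 540 and 416 bp in the windows and 386, 458 and 371 bp in the remainder, a ratio of 1.14 ± 0.0365 (SD, n = 3). The authors' fold enrichment, the pileup over the local background with 1 added to each, had a median of 3.36, 3.41 and 3.55 in the windows and 3.50, 3.43 and 3.66 outside. The difference was -0.0902 ± 0.0587 (SD, n = 3, exact sign-flip permutation p = 0.25), lower in 3 of 3 replicates. Among peaks of regions shared by the 3 replicates it was -0.0340 ± 0.181, with replicate 2 on the other side (exact sign-flip permutation p = 1.0). The share of peaks with a fold of 5 or more had no common direction, at 2.95%, 7.31% and 5.63% in the windows and 3.80%, 4.67% and 5.31% outside. Median local background, recovered from pileup and fold, was 5.83, 6.10 and 5.00 tags in the windows and 4.58, 4.93 and 4.00 outside, 1.25 ± 0.0178 times higher (SD, n = 3).

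Background also ran with density across the ends, with a Spearman's rho of 0.891 between mean density and mean background at the summits (n = 23, description only). It was 6.44 tags at 1p and 6.23 at 14q, and 3.43 at 3p. Its part in the density of peaks was not tested. Tags under a peak summit numbered 22, 23 and 20.0 in the windows and 19, 20.0 and 18.1 outside, by median. The share of peaks with a −log10 q of 5 or more was 33.9%, 48.6% and 32.7% in the windows against 25.8%, 37.4% and 26.9%, so with a lower fold the peaks were still called at smaller q-values.

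Peaks at chromosome ends lay closer together, as a higher density by itself brings about. The median distance to the next summit was 2.06, 2.02 and 1.75 kb in replicates 1, 2 and 3, and 3.48, 2.54 and 2.64 kb in the remainder. A next summit within 10 kb was found for 81.8% ± 3.16 of subtelomeric peaks and 70.4% ± 3.82 of the others, a difference of 11.4 ± 0.699 percentage points (SD, n = 3). The median gap was 0.684 ± 0.104 times that of the remainder (SD, n = 3), a smaller contrast than the 4.44 times higher density.

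Overlap between the 3 lists was higher at chromosome ends. After merging lists by an overlap of at least 1 bp, 1742 of 10071 subtelomeric regions (17.3%) had a peak in all 3 replicates, against 4851 of 42503 (11.4%) in the remainder. Such shared regions lay at 15.2 per Mb in the windows and 2.81 per Mb elsewhere. Counted by peak, 66.8%, 29.5% and 57.5% of the subtelomeric peaks of replicates 1, 2 and 3 were in shared regions, and 43.5%, 24.2% and 37.4% of the others. The difference was 23.3, 5.33 and 20.2 percentage points (mean 16.3 ± 9.60, SD, n = 3, exact sign-flip permutation p = 0.25). Where a 50% reciprocal overlap with a peak in both other lists was asked, it shrank to 0.768 ± 0.374 percentage points (SD, n = 3). Denser and wider peaks overlap more by position alone, and their part in the sharing was not tested. Of the replicate 2 peaks in the windows, 48.0% lay in regions of that replicate alone, against 16.8% and 20.1% in replicates 1 and 3.

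The number of shared regions differed between ends: 248 at 9q, 167 at 1p, 161 at 11p and 153 at 21q, while 3p and 9p had 1 each, 11q had 2 and 1q had 3. More peaks give more shared regions, so these counts restate the density. As a share of the regions of an end, 23.2% were shared at 9q and 17.3% at 21q, but 19.5% at the less dense 5p and 18.8% at 12q. The shared region closest to a chromosome end lay on 15q, 31.2 kb from the end of the assembly (101959423 to 101960005), with a weak fold of 2.28, 2.45 and 2.84. That on 9p lay 31.6 kb from the end (31569 to 32284), 1082 bp from WASHC1, with fold 2.65, 3.07 and 4.30, and both sit in the duplicated part of a chromosome end. On 5p a stronger one lay 72.4 kb inwards (72398 to 74891), with fold 4.4, 6.21 and 4.13. On 2q the first was 118.6 kb from the end within LINC01237 and LINC01880, and on 12p 119.5 kb, inside IQSEC3, a gene of synaptic signalling. On 14q the first shared region was 1131 kb inwards.

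The strongest shared subtelomeric region, by mean rank of fold within each list, lay inside MUC4, a membrane mucin gene, on 3q at 195778700 to 195789188, 2.51 Mb from the end. Its strongest peak had fold 6.44, 10.4 and 6.90 in replicates 1, 2 and 3, and it was made of 7, 1 and 5 peaks. The second, on 21q at 43397508 to 43403123, reached fold 6.24, 8.70 and 6.99 at LINC03039, 11360 bp from SIK1, a kinase gene. The third was inside AMZ1, a metallopeptidase gene, on 7p (2698578 to 2703670), with fold 7.21, 6.76 and 6.17. The spread was widest at MUC4, where replicate 2 stood above the other replicates.

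2 of the 10 highest ranked regions were short with a tall pileup in every library. One on 5q (180658290 to 180658941), 7992 bp from FLT4, a receptor of lymphatic endothelium, had 193, 209 and 164 tags at the summit and fold 6.24, 6.83 and 6.35. The other on 7q (155328354 to 155329150), 18119 bp from INSIG1, a regulator of sterol synthesis, had 182, 169 and 139 tags and fold 7.84, 5.82 and 8.54. The median subtelomeric summit had 20.0 to 23 tags, so both stood far above it. By their fold, the local background at both was also well above its subtelomeric median of 5.83, 6.10 and 5.00 tags. Its part in the tall pileup was not tested. The other regions lay inside GALNT9, a glycosyltransferase gene, on 12q (132227287 to 132238389, fold 6.49 ± 0.660), inside SCNN1D, a sodium channel subunit gene, on 1p (1284466 to 1290358, 6.92 ± 1.05), at the end of MORN1 on 1p (2315559 to 2325457, 6.33 ± 0.770), and at and beside PDCD1 on 2q (241848441 to 241861282, 6.21 ± 0.198, and 241846341 to 241848348, 6.29 ± 0.637; SD, n = 3 for each).

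The share of peaks at gene ends was close to that of other peaks, and the share in gene bodies was lower. A window of 1 kb either side of an end of a protein-coding gene was touched by 8.86%, 8.71% and 8.93% of subtelomeric peaks and by 9.64%, 9.98% and 8.93% of the others. The difference of -0.682 ± 0.641 percentage points (SD, n = 3) had no common direction over the replicates (exact sign-flip permutation p = 0.50), and with windows of 2 Mb at the chromosome ends it turned to 1.16 ± 0.838. Counting long non-coding RNA genes too, 13.3% ± 0.867 of subtelomeric summits fell within 1 kb of a gene end, 54.0% ± 0.798 in a gene body and 32.7% ± 0.0809 between genes. Elsewhere the shares were 11.8% ± 0.436, 61.6% ± 0.426 and 26.5% ± 0.0134 (SD, n = 3 for each), so the largest contrast was the lower share in gene bodies. The share of the sequence that is gene body was not measured, and its part in this contrast was not tested. Protein-coding genes had a median length of 18127 bp in the windows and 27445 bp outside.

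By gene, subtelomeric genes carried peaks more often. Of 1197 protein-coding genes in the windows, 344 (28.7%) had one or more peaks within 1 kb of either gene end in 2 or 3 replicates, against 13.9% of all protein-coding genes on the 13 chromosomes and 12.3% of those outside the windows. A gene-end peak in all 3 replicates was found for 225 (18.8%), against 7.96% of all. In single replicates the share was 23.7%, 37.3% and 29.3% in the windows and 11.7%, 16.5% and 12.6% outside, a ratio of 2.21 ± 0.154 (SD, n = 3). With 1 replicate left out, a peak in both of the others was needed. The count was then 305, 238 and 251 without replicates 1, 2 and 3, in that order. The share was 50.0% at 9q, 44.6% at 14q and at 1p and 41.4% at 20q, and no gene of 3p was among them.

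The 15 protein-coding genes with the highest mean rank came from 6 of the 23 ends, with 6 genes on 1p, 3 on 9q and 2 each on 2q and 20q. PDCD1 (chromosome 2, 241849884 to 241858894), an inhibitory receptor of T cells, led, with fold 6.14, 6.43 and 6.05. PERM1 (chromosome 1, 975198 to 982093), a regulator of muscle energy metabolism, had the highest mean, at 5.11, 9.28 and 7.05. MORN1 had 5.59, 7.12 and 5.91, and HES5, a Notch target that keeps neural progenitors undifferentiated, had 5.01, 6.42 and 5.69. Replicate 2 gave the highest value in each of these 4 genes.

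Neighbouring genes shared a peak in 2 cases. BIRC7, an inhibitor of apoptosis, and NKAIN4 on 20q had fold 5.58, 8.01 and 5.46. RNF224 and SLC34A3, a renal phosphate transporter gene, on 9q had 4.72, 7.30 and 6.10. TRIB3, a stress-induced pseudokinase gene on 20p, was the exception to the order of replicates, with 7.14 in replicate 1, 4.86 in replicate 2 and 6.0 in replicate 3. TTLL10 had mean fold 6.16 ± 1.13, CALML6 6.40 ± 1.58, ANKRD65 5.98 ± 1.40 and NEU4, a sialidase gene, 5.59 ± 0.907. LOC124900467 on 21q had 5.64 ± 0.529 and LCNL1 6.10 ± 0.344 (SD, n = 3 for each).

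**Figure D4:**
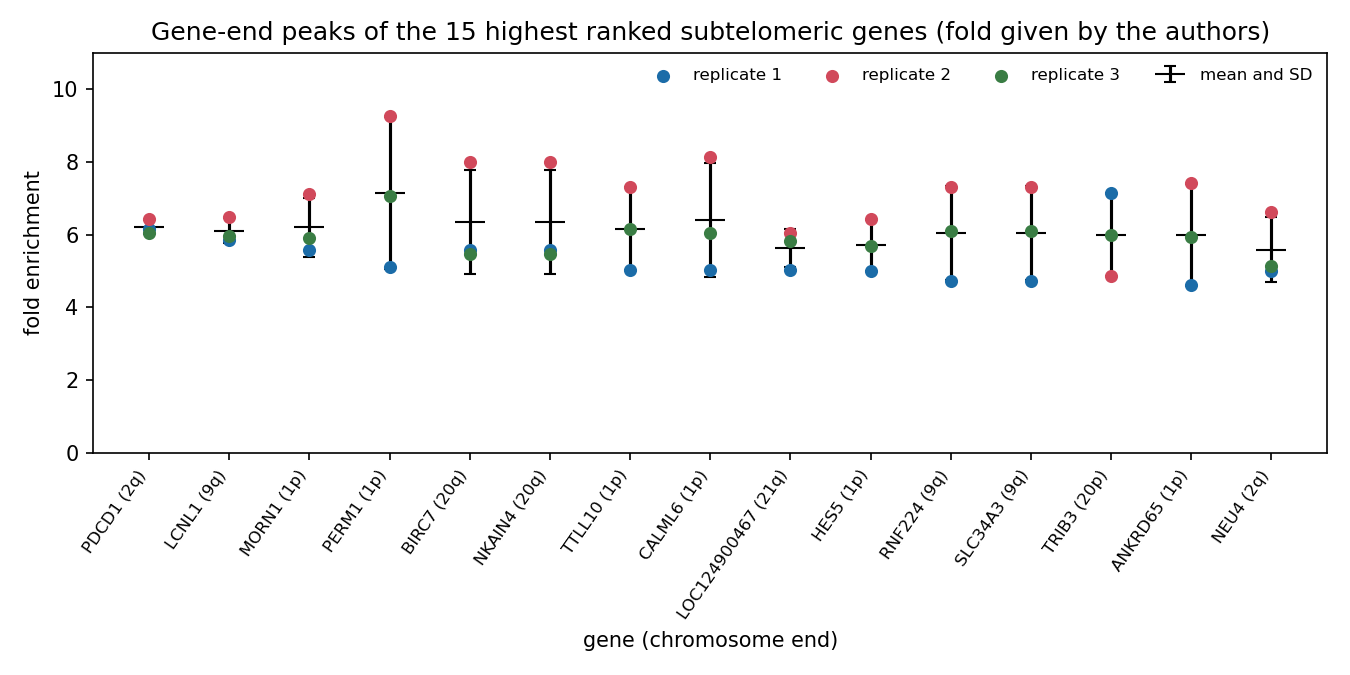
The authors' fold enrichment of the gene-end peak in each replicate (points), with mean and SD, for the 15 subtelomeric protein-coding genes with the highest mean rank; the chromosome end is in brackets. Values run from 4.61 to 9.28, and replicate 2 is the highest in most genes but the lowest in TRIB3.

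Gene families that cluster at chromosome ends fell on both sides of the 13.9% found over all protein-coding genes of these chromosomes. They also fell on both sides of the 28.7% found over the protein-coding genes of the windows. A gene is called here when 2 or 3 replicates had a gene-end peak. All 7 mucin genes of the windows were called. MUC6, a gel-forming gastric mucin, had fold 3.85, 5.5 and 5.4, MUC5B, an airway mucin, 3.33, 6.49 and 4.14, and MUC5AC 2.21, 4.18 and 7.81. MUC2, the main gel-forming mucin of the intestine, had 4.33, 5.71 and 2.71, with 17, 11 and 20 peaks in the gene. The order of the 3 replicates thus differed from mucin to mucin. Elsewhere on the 13 chromosomes 5 of 11 mucin genes had such a peak.

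Of 8 collagen genes 5 were called, and outside the windows 6 of 25. COL5A1, a fibrillar collagen gene on 9q, had fold 2.23, 3.64 and 5.97 and 27, 62 and 43 peaks in its body. COL6A2 had 3.37, 4.06 and 3.02 and COL9A3, a cartilage collagen gene, 2.99, 3.48 and 3.65. The 3 TNF receptor superfamily genes on 1p, which act in lymphocytes, all had one in each replicate: TNFRSF14 at fold 3.90, 6.84 and 6.77, TNFRSF18 at 4.17, 7.30 and 5.27, and TNFRSF4 at 3.90, 5.92 and 2.93. The decoy receptor gene TNFRSF6B on 20q had one in replicate 2 only. Outside the windows 3 of 6 genes with a TNFRSF symbol were called, and members under other symbols were not counted. Of 3 striated muscle genes, TNNI2 and TNNT3, fast skeletal troponin genes of 11p, had one in all 3 (mean fold 5.59 ± 1.68 and 5.57 ± 1.96, SD, n = 3), and MYLK4 had none. Striated muscle genes outside the windows were called in 12 of 22 cases.

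Among developmental transcription factor genes 18 of 73 were called outside the windows and 12 of 31 inside, 9 of the latter in all 3 replicates. Among those 9, the highest by mean fold after HES5 were FOXF2 (4.64, 4.79 and 4.45), a mesenchymal forkhead factor, and EN2 (2.67, 5.63 and 5.08), a homeobox gene of the midbrain. FOXC1, FOXQ1, FOXM1, IRX1 and IRX2 were among the 13 with none. The name pattern also took PAXX and PAXIP1, which act in DNA damage repair and had none, and without them the count was 12 of 29. In a chosen, partial list of Notch pathway genes 2 of 6 were called. They were HES5 and LFNG, a glycosyltransferase that modifies the receptor (replicates 2 and 3, 5.07 and 3.60). The receptor gene NOTCH1 had one in replicate 3 only and the ligand gene DLL1 in replicate 2 only. JAG2, another ligand gene, and HES4 had none. HES1 on 3q was not in that list and had none either.

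Of 9 potassium and calcium channel genes 4 were called, and outside the windows 15 of 69. KCNQ1, a potassium channel gene of heart and epithelia, had a gene-end peak of fold 3.69, 5.03 and 4.64. KCNA6, another potassium channel gene, had one in replicates 1 and 2 (4.26 and 3.94), and KCNT1 in replicates 2 and 3 (3.94 and 2.95). Peaks in the bodies of such genes could be many: 103, 107 and 116 in KCNQ1 and 50, 31 and 62 in KCNT1. The calcium channel gene CACNA1C had no gene-end peak, and 20, 53 and 27 in its body of 727171 bp. The gene with the most was PRDM16, a transcription factor of brown fat, with 112, 191 and 145. KCNT1 and PRDM16 were picked after their values were seen. Longer genes can hold more peaks by length alone, and KCNQ1 spans 404098 bp, KCNT1 93318 bp and PRDM16 369419 bp. The windows as a whole held 59.7 ± 13.5 peaks per Mb (SD, n = 3).

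The imprinted cluster of 11p15.5 lies wholly in the windows. For lists that include genes other than protein-coding ones, the background is 9.42%, the share of genes of any kind on the 13 chromosomes that were called. Among genes of any kind in the windows the share was 24.2%. Of the 16 imprinted-cluster genes 11 were called, 8 of them in all 3 replicates. INS, the insulin gene, had fold 4.46, 7.70 and 4.97, and its read-through gene INS-IGF2 shares that peak. H19, a maternally expressed non-coding RNA, had 3.25, 5.92 and 6.06, and IGF2, a fetal growth factor, 3.09, 4.89 and 2.66. CDKN1C, a cell cycle inhibitor, had one in replicates 2 and 3 (3.18 and 3.98), and PHLDA2 in replicate 1 only. CD81, KCNQ1OT1, NAP1L4 and TRPM5 had none, although TRPM5, a taste-cell channel gene, held 16, 7 and 14 peaks in its body.

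The immunoglobulin heavy chain locus on 14q differed by segment class. Of its 175 entries 40 (22.9%) were called, 1 of which is the locus itself. Among the 11 constant region entries 9 were called, among the 27 diversity segments 25 and among the 9 joining segments 5, and all of these had a gene-end peak in at least 1 replicate. The constant region pseudogene IGHEP1 had fold 6.17, 6.76 and 7.0, and IGHG1, an antibody class gene, 3.92, 5.47 and 5.06. The short segments lie close together and share peaks, so they are not independent. Of the 127 variable segments, nearer to the chromosome end, none had one in any replicate. From the first constant to the last constant entry (105586937 to 105856217) there were 68, 68 and 71 peaks. Across the variable segments (105939754 to 106879844) there were 0 in each replicate. The split by class was made after the values were seen.

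Olfactory receptor genes, which encode odorant receptors, carried almost none. Of 75 in the windows 0 were called, and 72 had no gene-end peak in any replicate. Outside the windows it was much the same, with 1 of 275 called. OR2B11, OR2V1 and OR2V2 had one in a single replicate, of fold 3.60, 3.22 and 2.87. Families with copies in the duplicated outermost sequence were taken by name. Not all of their entries lie there, for example the pseudogene RPL23AP14 at 2781894 to 2782420 on 12p. Of these entries 2 of 95 were called outside the windows and 2 of 54 inside. Those inside were WASH3P on 15q (2.28, 2.45 and 2.84) and FAM138C on 9p (2.96 and 3.05 in replicates 2 and 3). FAM138A on 1p had one in replicate 1 only (3.44). Reads from such near-identical copies can be placed at the wrong copy or dropped, so these values are uncertain.

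Of 24 zinc finger genes 3 (12.5%) were called, namely ZNF346, ZNF692 and ZNF512B, and of 22 keratin-associated protein genes 5 (22.7%). Outside the windows the counts were 8 of 135 and 1 of 38. KRTAP5-6, a hair matrix protein gene of 11p, had fold 3.20, 3.66 and 5.63. KRTAP10-12 on 21q had 5.40 and 2.93 in replicates 2 and 3, and KRTAP10-11 had 4.03 and 3.49. Keratin-associated protein genes are also near copies of each other.

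Among genes given whatever their values, several had peaks in the body and few at the ends. TERT had a gene-end peak in replicate 2 only (fold 3.04) but 5, 19 and 15 peaks in its body, up to fold 4.18, 5.42 and 4.84. RTEL1, a helicase that protects telomeres, had one in all 3 (2.26, 3.14 and 4.23). SHH, a morphogen gene, had a gene-end peak in replicate 2 alone (3.51), with 3, 5 and 3 peaks in its body. HDAC4, a deacetylase gene, had 23, 33 and 28 in its body and a gene-end peak in replicate 2 alone. MAD1L1, a spindle checkpoint gene, had 29, 92 and 25, with the excess in replicate 2.

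Of the other genes given whatever their values, 3 had no peak. ISG15, an interferon-induced ubiquitin-like gene, DUSP22, a phosphatase gene, and FOXC1 had none at their ends or in the body. AGRN, a synapse organiser, SKI, a TGF-beta pathway gene, and POLE, a replicative DNA polymerase, had no gene-end peak and at most 2 peaks in the body. IGF1R, a growth factor receptor gene, had none at its ends, and 4, 15 and 12 in its body of 315992 bp. AKT1, a kinase gene, had a single gene-end peak of fold 5.46 in replicate 2, and CCND2, a cyclin gene, one of 2.84 in replicate 2.

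Promoters with a peak differed in sequence from those without. Of 970 subtelomeric protein-coding genes with a RefSeq promoter, 109 (11.2%) had a peak over it in at least 2 replicates, against 4.42% of all such genes of the 13 chromosomes. A gene can have several promoters, and 1339 subtelomeric ones were measured. Those overlapped in replicates 1, 2 and 3 held a median of 12.5, 12 and 12 CG dinucleotides, and those not overlapped 27, 28 and 28. The difference was -15.5 ± 0.866 (SD, n = 3), while GC content differed by -2.44 ± 0.509 percentage points only (SD, n = 3). Outside the windows overlapped promoters also held fewer, with medians of 11, 11 and 10.0 against 21 in each replicate. Their GC content differed the other way there, by 0.667 ± 0.577 percentage points (SD, n = 3).

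By CG number, a peak lay over 24% ± 8.33 of the subtelomeric promoters with 10 to 19 CG dinucleotides and 14.6% ± 5.16 of those with 0 to 9. With 20 to 29 the share was 6.30% ± 1.88, and with 30 or more 4.55% ± 1.39 (SD, n = 3 for each). The shares of the last 2 classes lay below those of the first 2 in every replicate. The printed promoters of PDCD1, LCNL1, PERM1 and TTLL10 are of the first 2 classes, and that of TERT with 36 is of the last.

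**Figure D5:**
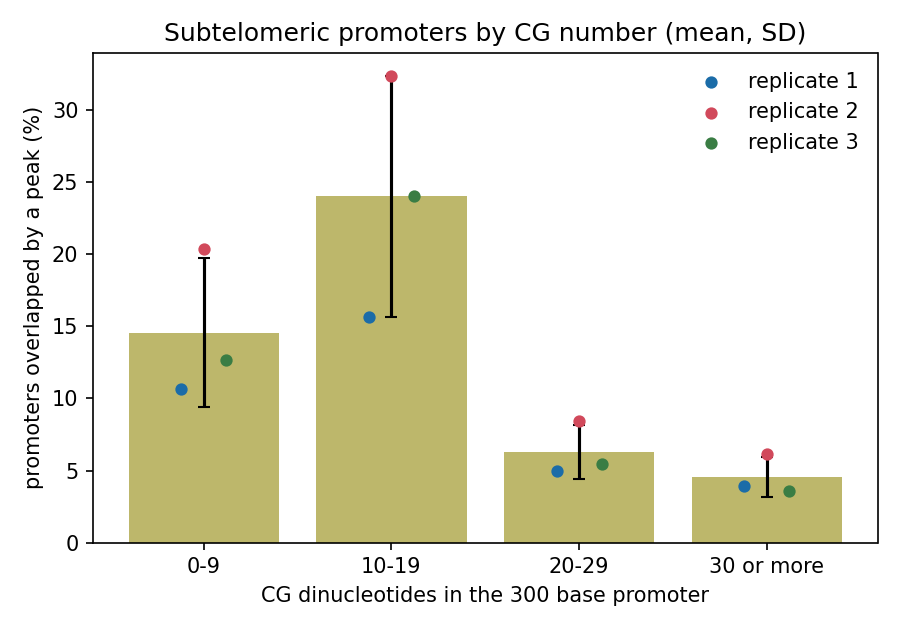
Share of subtelomeric promoters overlapped by an AcNEIL1 peak (bars, mean; error bars, SD; points, 3 replicates) by the number of CG dinucleotides in the 300 bases. The share is 24% at 10 to 19 and 4.55% at 30 or more.

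Short motifs were searched on both strands in the same promoters. TTAGGG, the telomere repeat unit, was in 7.75% of the 129 subtelomeric promoters with a peak in at least 2 replicates, in 7.62% of the 1128 with no peak and in 9.06% of all 14474 promoters of the 13 chromosomes. GGGNNNGGG, paired runs of G, was in 80.6%, 68.3% and 61.3%. GGGCGG, the GC box, was in 53.5%, 63.9% and 54.9%, and the 2 patterns can overlap. A match is a description of the letters, and none was tested for a bound factor.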

How the data were processed

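ChIP-seq peak lists of 3 AcNEIL1 libraries of HCT116 cells were used, and the 3 inputs entered as the caller's controls only. Peaks were called by the authors in hg38, 1 list per replicate with its input as control. Per the file headers, the caller was MACS 2.1.1.20160309, run with a q cutoff of 0.05, at most 2 tags per position and the larger library scaled to the smaller. Bowtie2, SAMtools, bedtools, MACS2, FastQC, cutadapt and Trim Galore appear in the submitters' processing notes, with no role stated. Per the file headers, the deposited signal is the pileup at the summit, in tags extended to 268, 294 and 249 bp. The −log10 columns deposited by the authors hold p-values and q-values. The deposited fold is a ratio to the local background, which was recovered from it. Coordinates are 1-based.

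Gene positions and promoters came from RefSeq tables of GRCh38.p14, after 679 genes on scaffolds were dropped, which left 58415 genes. Exons were not used here. Length was that of 1 Mb bins with a gene or a peak; bins with neither were left out. A peak with a summit in such a bin was assigned its gene class (0, 1 to 5, 6 to 10, 11 to 20, over 20 genes per Mb). Tests were exact two-sided sign-flip permutations over the 3 replicates. All statistics were computed with Python 3.11.15, numpy 2.4.6 and pandas 2.3.3. The code for the density ratio was also run on simulated lists with a known ratio, which checks the code, not the observed ratio.

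Named items followed a rule: the 10 regions and 15 genes with the highest mean rank of fold in all 3 replicates, up to 3 members of each of 14 gene lists, the shared regions nearest to 5 ends, the densest and sparsest ends, 20 genes whatever their values, and 5 promoters. Further genes named to describe a list were taken from it after their values were seen, and 1 list member is not reported here. The members and lists were chosen with earlier results of these data known. Alternatives tried were a stricter q-value, lists of equal length, leaving out a replicate, other windows, lengths, overlaps and chromosomes. Depth limits the lists: no peak means none past the cutoff.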

Additional observations from a re-analysis of the deposited data

How the results depend on the processing

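No paired analysis was possible because the inputs, which alone share replicate numbers with the ChIP libraries, entered through the caller only and had no values to pair. Windows and remainder were compared within each ChIP library, so the tests given are already within a library. Leaving out 1 replicate gave density ratios of 4.39 to 4.46, ratios at equal gene number of 2.66 to 2.71, differences in gene-end share of -1.02 to -0.389, in shared share of 13.1 to 14.1 and in median fold of -0.122 to -0.0650, and 238 to 305 genes with a gene-end peak. With 1 replicate left out, the gene count and the shared share asked for a peak in both remaining replicates. The count of 18 ends above their interior was the same under all 8 alternatives run for it. The density ratio of 4.44 was 5.66 for peaks with a −log10 q of 5 or more, 4.67 with equal numbers of peaks, 4.99 and 3.36 with windows of 2 and 10 Mb, 4.66 over full chromosome length, 3.64 with peaks within 1 kb merged and 4.34 over chromosomes 1 to 22 and X. At equal gene number it was 3.32 for the stricter peaks, 2.80 with equal numbers, 2.48 and 2.45 with windows of 2 and 10 Mb, 2.27 with peaks merged and 2.76 for peaks outside gene ends. The difference in gene-end share was -1.59 for the stricter peaks, 1.16 (the other direction) and -1.75 with windows of 2 and 10 Mb, and -1.67 with 5 kb around gene ends; the cause was not tested. The difference in shared share was 0.768 under 50% reciprocal overlap, and that in median fold -0.155 for the stricter peaks. Genes with a gene-end peak numbered 203 for the stricter peaks, 195 with windows of 2 Mb, which hold fewer genes, and 625 with 5 kb around gene ends. Depth limits every absence of a peak.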
